A study of Homo sapiens with 3 samples.

Results

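The genes examined encode organic cation transporters, membrane proteins that move positively charged small molecules, metformin among them, across the plasma membrane. The members were taken by gene symbol and not by their values: SLC22A2, SLC22A3, SLC22A4, SLC22A5, SLC29A4, SLC47A1 and SLC47A2, 7 of the 25270 symbols that the files list. Other carriers of metformin were not analysed here as members. Each was followed through RNA-seq of parental HepG2 cells, a human hepatocellular carcinoma line with no treatment, of HepG2/metR cells, the survivors of HepG2 cells kept in metformin for over 5 months, and of HepG2/metR cells that received 40 mM oxamate, which blocks lactate dehydrogenase, during 24 h. The RNA came from 1 library per condition, so no value has a replicate error and no difference has a test. Whether metformin was still in the medium when RNA was taken is not given in the sources used here. HepG2/metR is a single selected population, so selection and any other difference between these cultures cannot be told apart.

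Metformin is charged at the pH of blood and enters or leaves cells on carriers. Members of the SLC22 family and SLC29A4 mainly bring such cations in, whereas the SLC47 proteins exchange them for protons and move them out, into bile in the liver and into urine in the kidney. SLC22A4 and SLC22A5 have natural cargo of their own, ergothioneine and carnitine respectively. Transport depends on the protein and its place in the membrane, neither of which RNA levels measure.

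The values are FPKM, fragments scaled by transcript length and by the size of the library, so levels of different genes within a library can be set side by side. From the smallest values, 1 fragment was worth 1.21 times as much in the parental library as in the HepG2/metR library and 1.24 times as much as in the oxamate-treated library, and the number of reads itself is unknown. The labelled tissue is liver. All 10 hepatocyte markers examined were lower by 2-fold or more in the HepG2/metR library, and their summed level was 29786 FPKM in parental, 14.0 FPKM in HepG2/metR and 10.7 FPKM in oxamate-treated cells. The defining marker TTR was listed at 0 in both HepG2/metR libraries, and ALB at 0.747 and 0.617 FPKM. Hepatocyte markers therefore differ between the libraries together with each difference between parental and HepG2/metR cells given here, and their part in those differences was not tested. In bulk RNA, fewer cells that express a gene and less RNA per cell cannot be told apart.

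Upstream sequences are shown for the 3 members kept that have a window in the RefSeq table, of which SLC22A4 and SLC22A5 are next to each other on chromosome 5. SLC22A3 and SLC47A1, the members with the largest differences between parental and HepG2/metR cells, have none there. Each is the 250 bases before the transcription start in RefSeq, on GRCh38.p14, and capitals mark CACGTG, the E-box read by USF1 and USF2, and GGGCGG, the GC box read by SP1, on either strand, where neighbouring boxes may overlap.
SLC22A4 promoter, chr5:132294144-132294393, plus strand: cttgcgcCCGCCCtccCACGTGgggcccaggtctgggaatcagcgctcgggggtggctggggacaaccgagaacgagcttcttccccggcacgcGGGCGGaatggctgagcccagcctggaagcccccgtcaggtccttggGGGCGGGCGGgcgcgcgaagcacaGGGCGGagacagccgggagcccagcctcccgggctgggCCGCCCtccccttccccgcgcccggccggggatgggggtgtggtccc
SLC22A5 promoter, chr5:132369460-132369709, plus strand: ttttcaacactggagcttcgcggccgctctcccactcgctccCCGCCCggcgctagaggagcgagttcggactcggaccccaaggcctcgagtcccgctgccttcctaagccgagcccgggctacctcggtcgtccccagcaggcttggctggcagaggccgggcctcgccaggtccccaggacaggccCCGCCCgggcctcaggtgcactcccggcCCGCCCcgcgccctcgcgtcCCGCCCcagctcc
SLC29A4 promoter, chr7:5282693-5282942, plus strand: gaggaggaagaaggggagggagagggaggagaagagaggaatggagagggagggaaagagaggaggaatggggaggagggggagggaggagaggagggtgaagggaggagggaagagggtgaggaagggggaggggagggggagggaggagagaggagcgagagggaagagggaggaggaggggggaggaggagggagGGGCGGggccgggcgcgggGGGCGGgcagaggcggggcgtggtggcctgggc

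The SLC22A4 window held 1 CACGTG and 6 GGGCGG boxes, the SLC22A5 window 0 and 4, and the SLC29A4 window 0 and 2. Of 35116 windows of the same length in the table, 6.34% held CACGTG and 42.6% held GGGCGG. The windows of SLC22A4, SLC22A5 and SLC29A4 had a GC content of 76%, 74% and 70.4%, against a median of 58% over all windows. A match describes the letters and does not show that a factor binds there. Windows were found for 5 of the 7 members.

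**Figure D1:**
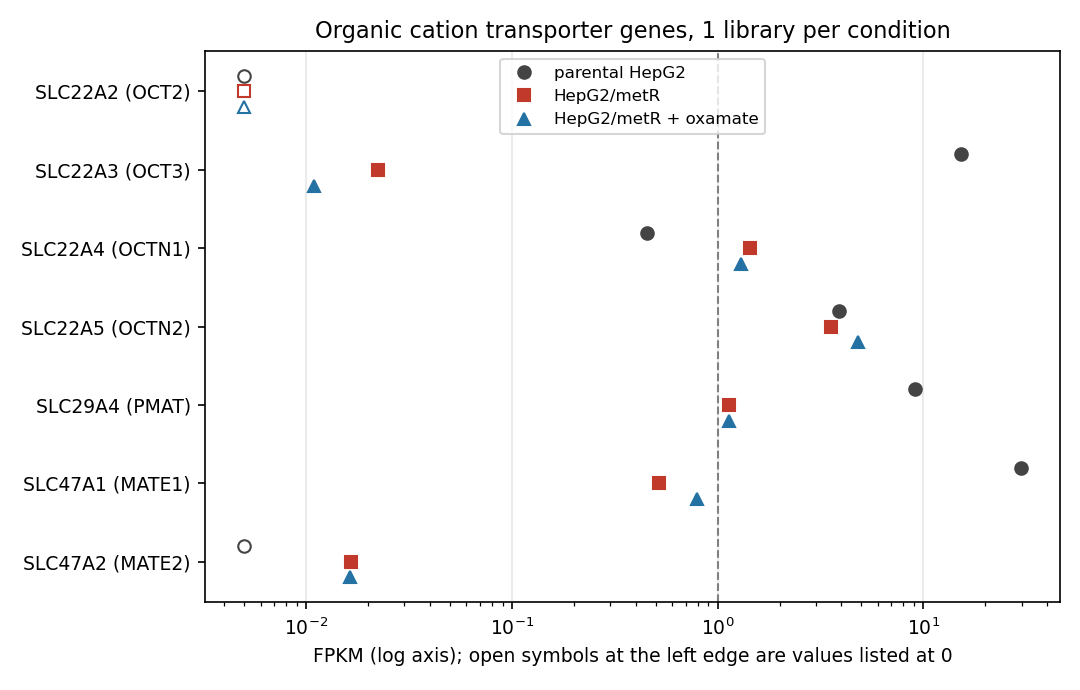
FPKM on a log axis for the 7 members, with 1 point per library; open symbols at the left edge are values listed at 0 and the dashed line is 1 FPKM. SLC47A1, SLC22A3 and SLC29A4 sit far to the right in parental HepG2 alone, SLC22A5 stays between 3.57 and 4.80 FPKM, and SLC22A4 is the only member kept with its lowest value in parental cells.

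Among the uptake carriers, SLC22A3 encodes OCT3, also known as the extraneuronal monoamine transporter. It was listed at 15.3 FPKM in parental HepG2, 0.0222 FPKM in HepG2/metR and 0.0109 FPKM in oxamate-treated HepG2/metR cells. The gene was thus well expressed in the parental line and at trace level in both selected cultures. The difference of the log2(FPKM + 1) values between HepG2/metR and parental cells was -4.00, and with oxamate it was -0.02. The untreated HepG2/metR value was 2.05 times the oxamate-treated value, whereas equal numbers of fragments would give a ratio of 1.02, so the difference between these trace values is of the size that very few fragments make.

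SLC29A4, the plasma membrane monoamine transporter PMAT, was listed at 9.08 FPKM in parental, 1.13 FPKM in HepG2/metR and 1.13 FPKM in oxamate-treated cells. Its FPKM in the parental library was 8.01 times that in HepG2/metR, a difference of -2.24 on the log2(FPKM + 1) scale. Oxamate made no visible difference, with a change of -0.00 as deposited that became 0.09 when every library was scaled to the same total. In GENCODE release 29, 81 of its 5811 exon bases lie opposite an exon of TNRC18, and the strand setting of the counting is not given in the sources used here. TNRC18 itself was listed at 9.63 FPKM in parental, 8.43 FPKM in HepG2/metR and 9.20 FPKM in oxamate-treated cells. Whether reads from the shared bases were counted for SLC29A4 was not tested.

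SLC22A4, which encodes the ergothioneine carrier OCTN1, had its lowest value in the parental library. It was listed at 0.454 FPKM in parental, 1.43 FPKM in HepG2/metR and 1.30 FPKM in oxamate-treated cells. The FPKM ratio of HepG2/metR to parental cells was 3.16, but on the log2(FPKM + 1) scale the difference was 0.74, short of the 1 that marks 2-fold. The gap comes from the pseudocount of 1, which weighs heavily on a gene below 2 FPKM, and with a pseudocount of 0.1 the difference was 1.47. With oxamate the change was -0.08, and 0.02 when every library was scaled to the same total. The HepG2/metR libraries lay on the same side of the parental library, with little between them.

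SLC22A5 encodes OCTN2, the sodium-dependent carnitine carrier of most tissues. Of the 5 members kept, it differed least between parental and HepG2/metR cells on the log2(FPKM + 1) scale. It was listed at 3.89 FPKM in parental, 3.57 FPKM in HepG2/metR and 4.80 FPKM in oxamate-treated cells. The change in HepG2/metR was -0.10 on the log2(FPKM + 1) scale, and 0.02 under upper-quartile scaling, so its sign depends on the scaling. With oxamate it was 0.34, as deposited the largest change of the 5. That is below the 0.58 that marks 1.5-fold, and it was between 0.33 and 0.49 under the other scalings. SLC22A4 and SLC22A5 are close relatives, and their longest protein-coding transcripts in GENCODE share an exact stretch of 80 bases. Of the 2152 stretches of 50 bases in all protein-coding transcripts of SLC22A4, 35 (1.63%) also occur in those of SLC22A5. Reads from these could be counted for either gene, where a read length of 50 bases is assumed. No other pair of members shared a stretch of 50 bases. Opposite the exons of SLC22A4 and SLC22A5 lies MIR3936HG, which covers 235 of 2688 exon bases of the former and 73 of 12788 of the latter.

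SLC22A2 encodes OCT2, the uptake carrier of the kidney tubule. It was listed at 0 in the parental, the HepG2/metR and the oxamate-treated library alike. A value of 0 in these files gives no limit, because the number of reads is unknown.

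Of the exporters, SLC47A1, which encodes the proton antiporter MATE1, was the highest member in parental HepG2. It was listed at 29.8 FPKM in parental, 0.516 FPKM in HepG2/metR and 0.794 FPKM in oxamate-treated cells. The parental FPKM was 57.7 times that of HepG2/metR, and the difference of -4.34 on the log2(FPKM + 1) scale was the largest of the 5 members kept, although with a pseudocount of 0.01 it was -5.82, against -8.89 for SLC22A3. With oxamate the change was 0.24 on that scale, an FPKM ratio of 1.54 between values that both stay under 1 FPKM. The antisense gene AC025627.1 lies opposite 203 of the 5719 exon bases of SLC47A1, where the same limit on strand holds as for SLC29A4. The level of SLC47A1 in parental cells exceeded that of 88.6% of gene symbols in that library, against 51.7% in HepG2/metR and 52.9% after oxamate.

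SLC47A2 encodes MATE2, whose known site is the kidney. It was listed at 0 in parental, 0.0166 FPKM in HepG2/metR and 0.0162 FPKM in oxamate-treated cells. The ratio of the HepG2/metR values, 1.02, is the ratio that equal fragment numbers give in these libraries. The longest protein-coding transcripts of SLC47A1 and SLC47A2 share no exact stretch over 30 bases.

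Summed over the members, the level was 58.5 FPKM in parental, 6.69 FPKM in HepG2/metR and 8.05 FPKM in oxamate-treated cells. The uptake carriers summed to 28.7, 6.16 and 7.24 FPKM in the same order, and the exporters to 29.8, 0.533 and 0.811 FPKM. SLC47A1 made up 50.9% of the sum in parental cells, followed by SLC22A3 with 26.1% and SLC29A4 with 15.5%. In HepG2/metR cells SLC22A5 held 53.3% and SLC22A4 21.4%, while SLC47A1 held 7.72%. The order from high to low was SLC47A1, SLC22A3, SLC29A4, SLC22A5 and SLC22A4 in parental cells, and SLC22A5, SLC22A4, SLC29A4, SLC47A1 and SLC22A3 in both HepG2/metR libraries. With 1 library each, no neighbours in these orders can be shown to differ.

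**Figure D2:**
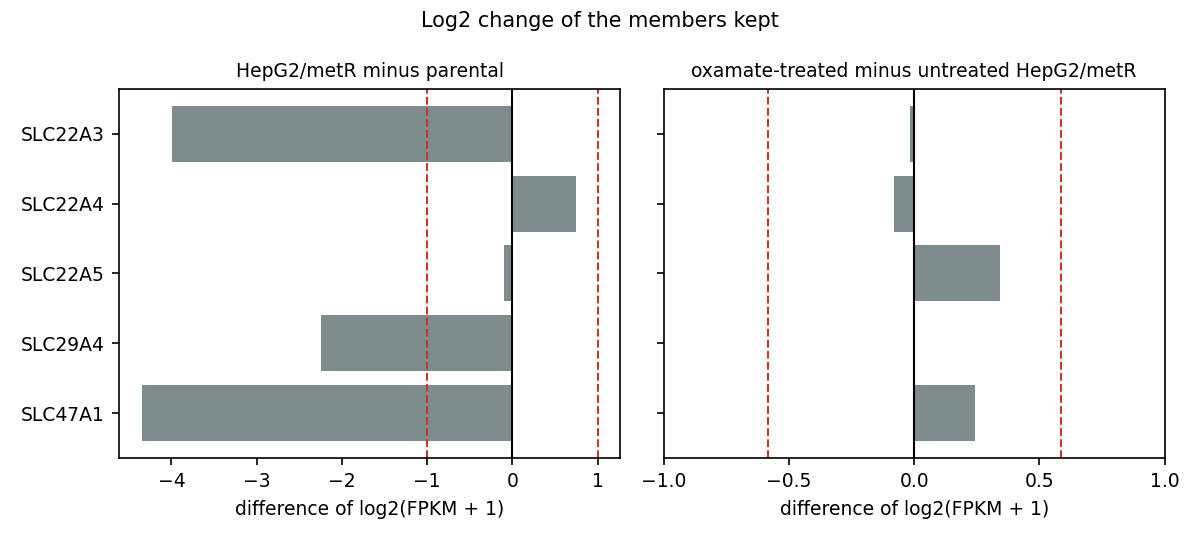
Difference of log2(FPKM + 1) for the 5 members kept, HepG2/metR minus parental on the left and oxamate-treated minus untreated HepG2/metR on the right, where the scale is narrower; dashed lines mark 2-fold and 1.5-fold. SLC22A3, SLC29A4 and SLC47A1 pass the line on the left, at -4.00, -2.24 and -4.34, and no bar passes it on the right.

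The methods of the study give a 2-fold threshold for genes higher in HepG2/metR and a 1.5-fold threshold for genes lower with oxamate. Its results name the 2-fold threshold only. Here the 2-fold and 1.5-fold thresholds were applied in both directions. A mean of at least 1 FPKM over the libraries was reached by 5 of the 7 members, all but SLC22A2 and SLC47A2. SLC22A3 and SLC47A1 reached it through the parental library alone, so they had to be lower elsewhere. Of the 5, 3 were lower by 2-fold or more in HepG2/metR, where 17.6% of the 12192 genes kept were, and 0 were at least 2-fold higher, where 16.6% were. The median change of the 5 was -2.24, against 0.01 over all genes kept. With oxamate, 0 of the 5 were at least 1.5-fold higher and 0 at least 1.5-fold lower, where 4.31% and 3.82% of genes kept were. These shares were 9.79% and 1.57% with every library scaled to the same total, and 5.43% and 3.08% under upper-quartile scaling, and the members past 1.5-fold stayed at 0 under both. Their median change was -0.00, against 0.02 over all genes kept. Both comparisons use the untreated HepG2/metR library.

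Other solute carrier genes are the closest in kind, and 213 of the 376 found were kept. Of these, 74 (34.7%) were lower by 2-fold or more in HepG2/metR and 32 were higher by as much, with a median change of -0.38. Lower values in HepG2/metR were thus a larger share of these carriers than of all genes. SLC47A1 had 10 of the 213 below it and SLC22A3 had 14, whereas SLC29A4 had 37, SLC22A5 had 126 and SLC22A4 had 170. With oxamate, 9 of the 213 were at least 1.5-fold higher and 7 lower, and the members ranked from SLC22A4 with 58 carriers below it to SLC22A5 with 177.

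**Figure D3:**
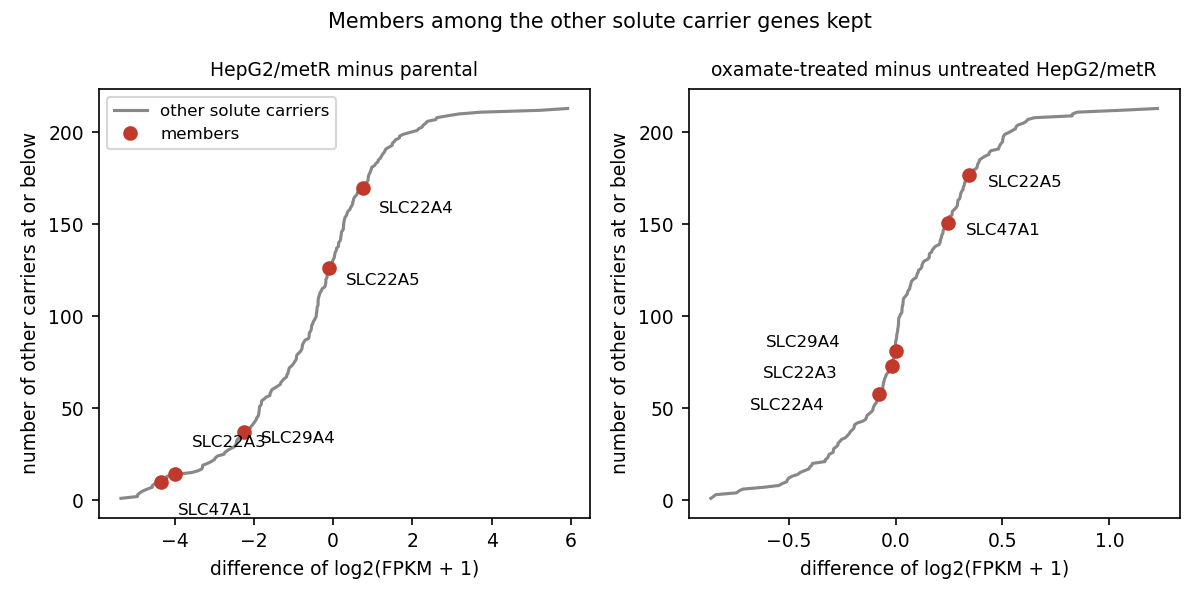
Ranked differences of log2(FPKM + 1) for 213 other solute carrier genes (grey line; vertical axis, number of those carriers at or below a value) with the 5 members kept as red points, for HepG2/metR minus parental on the left and oxamate-treated minus untreated on the right. On the left the members spread from 10 to 170 carriers below them, and on the right from 58 to 177.

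The carriers whose pair of changes lay nearest to each member were found by the distance over 2 log2 differences, which rest on 3 libraries. SLC46A1, the proton-coupled folate carrier, lay 0.002 from SLC22A5, with 10.3 FPKM in parental, 9.55 FPKM in HepG2/metR and 12.4 FPKM in oxamate-treated cells. SLC43A1, an amino acid carrier, was the nearest to SLC47A1, at 0.24, with 27.1, 0.534 and 0.599 FPKM in that order. SLC6A14, which takes up amino acids and carnitine, was the nearest to SLC22A3, at 0.20, with 17.3 FPKM in parental cells and 0 listed in both HepG2/metR libraries. SLC25A28, a mitochondrial iron carrier, was nearest to SLC22A4 at 0.10, and SLC17A2 to SLC29A4 at 0.03. SLC17A2 was listed at 3.81 FPKM in parental cells and at 0 in the others.

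Of 19 other SLC22 genes listed, all were found in the files and 5 were kept. SLC22A31 and SLC22A23, carriers without an agreed substrate, were listed at 34.4 and 10.5 FPKM in the parental library but at 0.205 and 0.524 FPKM in HepG2/metR, changes of -4.88 and -2.92. SLC22A15 and SLC22A17 were higher in HepG2/metR, at 2.76 and 2.51 FPKM against 0.587 and 0.699 FPKM in parental cells, changes of 1.24 and 1.05. SLC22A18 went from 6.80 to 4.27 FPKM, which is not 2-fold. The 5 kept thus held 2 genes past 2-fold in each direction, and 0 of them passed 1.5-fold with oxamate. Below the filter, SLC22A7 and SLC22A9, named after their values were seen, were also lower, with differences of -1.81 and -1.36.

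Of 20 further carriers of choline, thiamine, monoamines and other cations, 13 were kept, 3 being at least 2-fold higher in HepG2/metR and 5 at least 2-fold lower. SLC18A3, the vesicular acetylcholine transporter, was listed at 0 in parental, 7.98 FPKM in HepG2/metR and 9.42 FPKM in oxamate-treated cells. SLC35F3, a candidate thiamine carrier, went from 0.0152 to 6.48 FPKM, and SLC44A2, of the choline transporter-like family, from 2.41 to 14.3 FPKM. On the other side, the thiamine carrier SLC19A2 went from 20.4 to 8.51 FPKM, the polyamine carrier SLC18B1 from 10.1 to 3.92 FPKM, and FLVCR2 from 5.42 to 0.474 FPKM. SLC44A3 differed by -1.05 on the log2(FPKM + 1) scale, and SLC44A4 went from 3.11 to 0.0294 FPKM. With oxamate, SLC44A5 was the 1 gene past 1.5-fold, at 2.13 FPKM against 1.05 FPKM without.

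SLC29A4 belongs to the equilibrative nucleoside transporter family. Of the other family members, SLC29A3 was also lower in HepG2/metR, whereas SLC29A1 and SLC29A2 were not. SLC29A1, the main nucleoside carrier ENT1, was listed at 52.1 FPKM in parental, 64.1 FPKM in HepG2/metR and 35.3 FPKM in oxamate-treated cells, and its change of -0.84 with oxamate passed 1.5-fold. SLC29A2 went from 0.337 FPKM in parental to 3.27 FPKM in HepG2/metR cells, and the lysosomal SLC29A3 from 16.0 to 1.12 FPKM. Of 6 nucleoside carriers 3 were kept, with 1 at least 2-fold higher and 1 at least 2-fold lower in HepG2/metR.

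**Figure D4:**
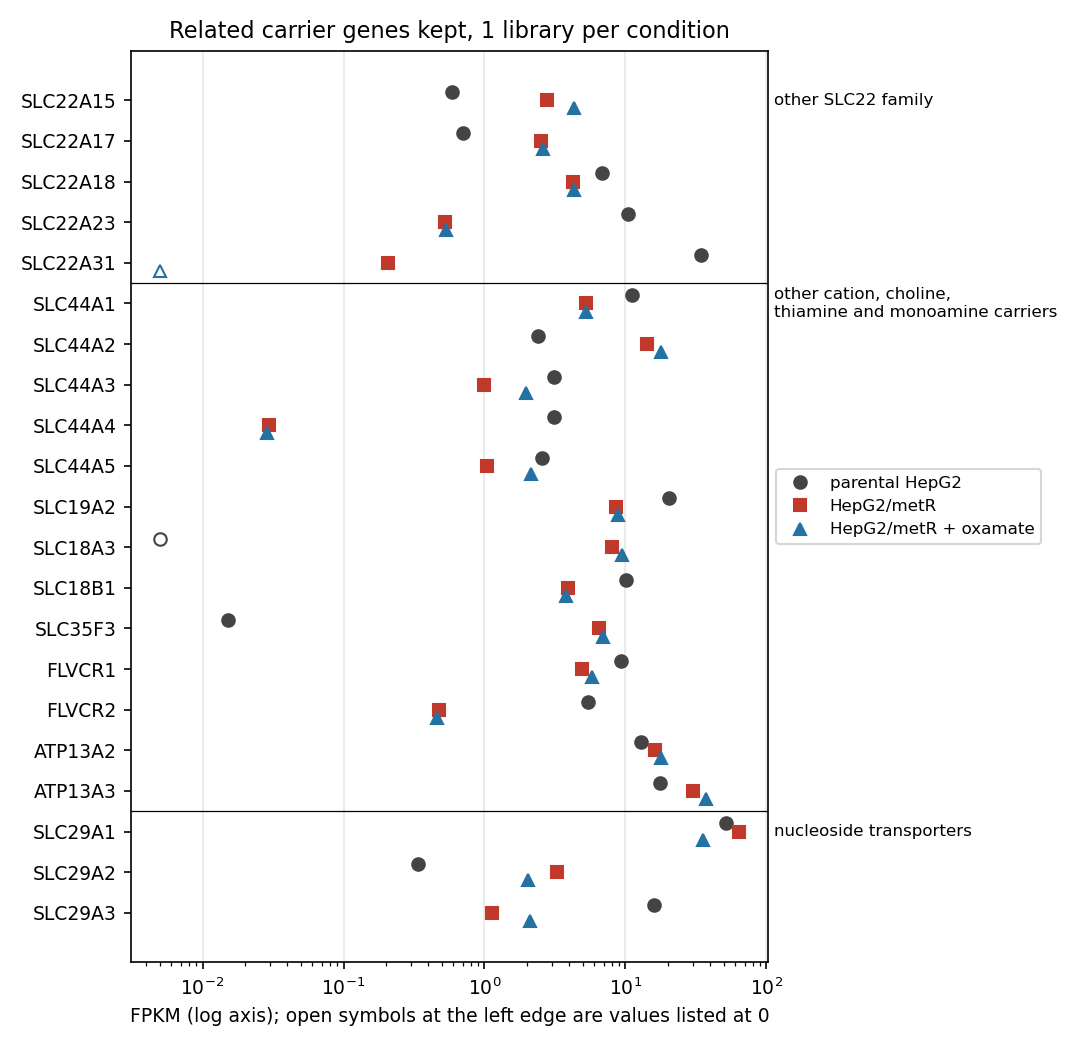
FPKM on a log axis for the related carrier genes kept, with 1 point per library, grouped into the other SLC22 family, other carriers of organic cations, and nucleoside transporters; open symbols at the left edge are values listed at 0. SLC22A31, SLC22A23, SLC44A4, FLVCR2 and SLC29A3 lie to the right in parental HepG2, and SLC18A3, SLC35F3 and SLC44A2 lie to the right in both HepG2/metR libraries.

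Hepatocytes take up bile acids and organic anions through a further set of carriers, of which 2 of 6 were kept. SLCO2B1 was listed at 9.36 FPKM in parental and 0.149 FPKM in HepG2/metR cells, whereas SLCO1B3 went from 0.0146 to 4.27 FPKM. Of 13 genes of carnitine synthesis and its shuttle, to which the cargo of SLC22A5 belongs, 10 were kept, with 2 at least 2-fold higher in HepG2/metR and 1 lower. CPT1A, which joins fatty acids to carnitine, went from 8.10 to 20.5 FPKM, and ALDH9A1, of carnitine synthesis, from 21.0 to 51.0 FPKM. The lower gene was SLC6A14, and 0 of the 10 passed 1.5-fold with oxamate.

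Of 14 transcription factors with known action on genes of such transporters, 13 were kept, 7 of them lower and 1 higher by 2-fold or more in HepG2/metR. HNF4A, a master factor of hepatocytes, was listed at 68.7 FPKM in parental, 0.0156 FPKM in HepG2/metR and 0.0153 FPKM in oxamate-treated cells. CEBPA went from 74.3 to 0.558 FPKM in HepG2/metR, GATA4 from 12.6 to 2.44 FPKM, and NR1I2, the pregnane X receptor, from 7.58 to 0.0246 FPKM. PPARG and PPARGC1A differed by -1.76 and -2.25 on the log2(FPKM + 1) scale. The factors of the boxes shown above changed less: USF1 was listed at 21.5 FPKM in parental, 22.7 FPKM in HepG2/metR and 25.5 FPKM in oxamate-treated cells, USF2 at 42.4, 29.5 and 30.5 FPKM, and SP1 at 9.32, 16.4 and 18.1 FPKM. With oxamate PPARG was the 1 factor past 1.5-fold, at 4.59 FPKM against 1.85 FPKM without.

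The 2 nearest protein-coding genes on each side of each member were followed as well. Of the 10 such neighbours kept that are no members, 2 were lower and 1 was higher by 2-fold or more in HepG2/metR. Beside SLC47A1 on chromosome 17, the aldehyde dehydrogenase gene ALDH3A2 went from 55.2 to 13.2 FPKM, while ULK2, an autophagy kinase gene on the far side of SLC47A2, went from 0.0221 to 3.37 FPKM. On chromosome 6, IGF2R, the mannose 6-phosphate receptor gene near SLC22A2 and SLC22A3, went from 64.1 to 10.8 FPKM. The neighbours of SLC29A4 on chromosome 7, among them WIPI2 with 12.0 and 13.1 FPKM in parental and HepG2/metR cells, did not reach 2-fold in either direction. On chromosome 5, PDLIM4 and IRF1 beside the SLC22A4 and SLC22A5 pair differed by 0.74 and 0.89 on the log2(FPKM + 1) scale, P4HA2 by -0.24, SLC22A4 itself by 0.74 and SLC22A5 by -0.10, none of them 2-fold.

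**Figure D5:**
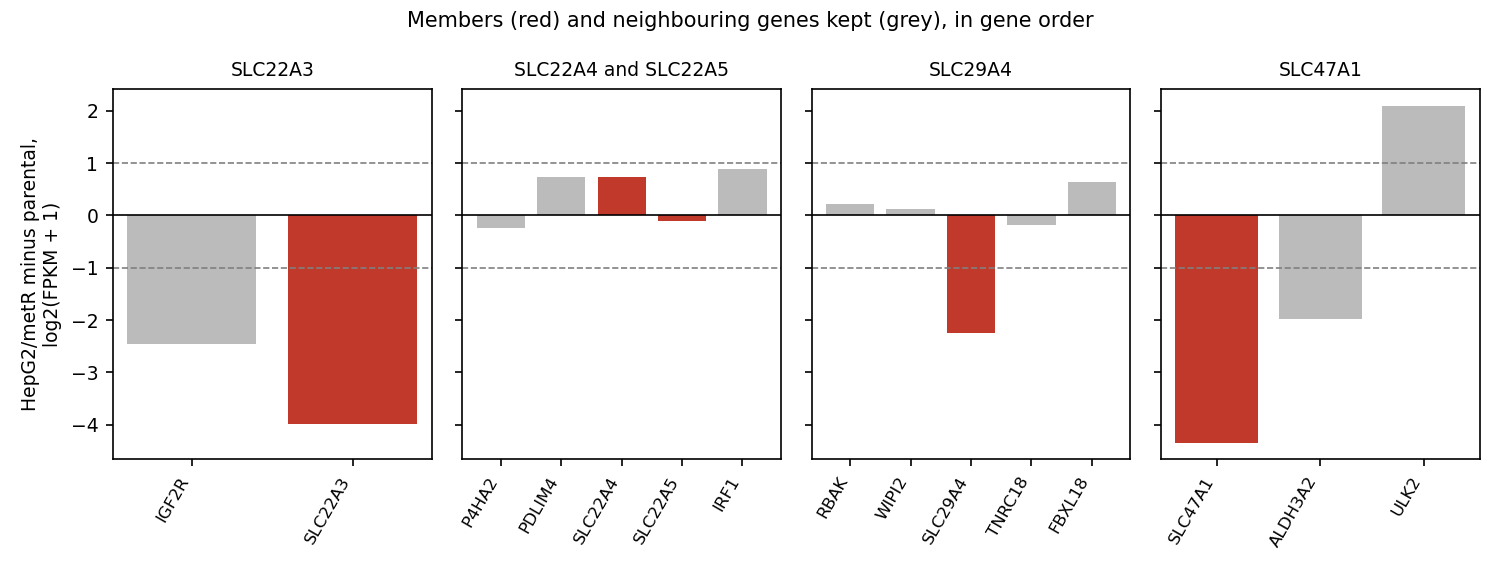
Difference of log2(FPKM + 1), HepG2/metR minus parental, for members kept (red) and the neighbouring protein-coding genes kept (grey) in their order along the chromosome, with dashed lines at 2-fold. SLC29A4 stands at -2.24 between neighbours from -0.17 to 0.64, whereas SLC22A3 and SLC47A1 each have a gene nearby that is also lower, IGF2R at -2.47 and ALDH3A2 at -1.99.

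Genes of other kinds were followed for comparison. Of 12 housekeeping genes, 2 were higher by 2-fold or more in HepG2/metR, with a median change of 0.65, and 3 were at least 1.5-fold lower with oxamate, with a median of -0.39. Of 7 mesenchymal markers 5 were kept, 2 higher and 1 lower by 2-fold or more in HepG2/metR, with a median change of 0.07. VIM was listed at 1.23 FPKM in parental and 1576 FPKM in HepG2/metR cells and THY1 at 0.0374 and 53.3 FPKM, whereas FN1 was listed at 1503 and 45.7 FPKM, and CDH2 and PDGFRB differed by -0.08 and 0.07 on the log2(FPKM + 1) scale. Of 7 markers of the kidney tubule, where SLC22A2, SLC47A1 and SLC47A2 have a known place, GGT1 alone was kept, at 19.5 FPKM in parental and 0.235 FPKM in HepG2/metR cells, and GGT1 is not specific to that tissue.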

How the data were processed

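RNA-seq of 3 libraries, 1 per condition, was analysed. The authors deposited 1 value per gene symbol on a log2 scale. The form log2(FPKM + 1) was read from the values, since 2 to the power of the value, minus 1, lay within a relative 1e-07 of a number of 6 significant digits for all 34366 values of at least 1 FPKM. The submitters' processing notes name STAR 2.5.1b, FastQC 0.11.5, Cufflinks 2.2.1 and hg19. Annotation, filters and strand setting are not given in the sources used here. Read totals are not known, and intervals based on them are left out.

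Of the symbols, 28 were dates and were not used. A log2 change is the difference of deposited values, with the pseudocount of 1 they hold. Genes were kept where FPKM averaged 1 or more over the libraries. Without replicates no test was made. The members and all lists were chosen with earlier results of these data known. Named genes were all members, list genes past the fold thresholds, the nearest solute carriers in change, and neighbours. Gene order, which needs no coordinates, and promoter windows came from RefSeq (GRCh38.p14), with 22374 symbols matched in its gene table, and transcripts from GENCODE release 29. Identity between proteins was not analysed here, and the values of some list genes are not reported here. The calculation was checked on simulated libraries with changes well past 2-fold planted in genes of at least 5 FPKM. That check does not cover lower genes or the spread between cultures. Alternatives were pseudocounts of 0.1 and 0.01, leaving out the filter, raising it to 5 FPKM, 3 scalings and the other fold threshold. Python 3.11, numpy 2.4.6, pandas 2.3.3 and matplotlib 3.10.9 were used.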

Additional observations from a re-analysis of the deposited data

How the results depend on the processing

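The 3 members at least 2-fold lower in HepG2/metR, SLC22A3, SLC29A4 and SLC47A1, passed under each pseudocount, scaling and threshold tried and without the filter. A minimum mean of 5 FPKM kept only SLC22A3 and SLC47A1, both lower. SLC22A3 and SLC47A1 reached that mean through the parental library alone, as they did the mean of 1 FPKM, so they had to be lower elsewhere. The number at least 2-fold higher was 0 as deposited and 1, SLC22A4, with a pseudocount of 0.1 and with 0.01. A smaller pseudocount weighs less on low genes. SLC22A4 was also the 1 member higher at 1.5-fold. Of all genes kept, 16.6% were higher as deposited, 19.1% with 0.1, 19.5% with 0.01 and 26.7% at 1.5-fold. The shares lower were 17.6%, 19.8%, 20.1% and 27.1% in that order, with 9.60% without the filter and 15.9% at 5 FPKM. Under the 3 scalings 15.3% to 18.0% were lower and 16.3% to 19.0% higher. With oxamate the numbers at least 1.5-fold higher and lower were 0 and 0 as deposited. They were 1 (SLC47A1) and 1 (SLC22A3) with a pseudocount of 0.01, both at genes under 1 FPKM in those libraries. Of all genes kept, 9.53% were higher and 5.62% lower with that pseudocount. Of 50 values of single members under these alternatives, 42 kept their direction and side of the threshold, 4 passed a threshold, and 4 that were below it changed sign. Scaling to the same total moved the median of all genes kept to 0.17 with oxamate, and upper-quartile scaling moved it to 0.16 in HepG2/metR against parental. Over all genes kept, 525 were higher and 466 lower with oxamate as deposited, 1016 and 607 with a pseudocount of 0.1, 1162 and 685 with 0.01, 1194 and 192 with scaling to the same total, 271 and 403 at a minimum mean of 5 FPKM, and 66 and 64 at 2-fold. In HepG2/metR against parental, 2019 were higher and 2146 lower as deposited, 1247 and 1427 at that minimum, and 3258 and 3299 at 1.5-fold. No paired analysis was possible because each condition has 1 library, which also leaves the spread between cultures unmeasured.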
